A study of Mus musculus with 18 samples.

Results

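The data describe 10 genes of oxygen response and sugar breakdown in mouse mammary tissue: Slc2a1, Hk2, Pfkp, Aldoa, Pgk1, Ldha, Car9, Vegfa, Bnip3 and Ndrg1. They were taken by symbol from a table of 55450 genes. All 10 were found, in 11 rows because the table holds 2 rows named Aldoa, and all 11 rows passed the filter on low counts, which left 19186 genes. RNA-seq was done on 15 primary mammary tumors and 3 normal mammary glands of C57Bl/6 female mice, each library with a number of its own in the labels. The B1/P/Rbf tumors (n = 5) had the genotype Brca1 fl/fl/Trp53 fl/fl/TgK18GT121 Tg/+, the B1/P tumors (n = 5) Brca1 fl/fl/Trp53 fl/fl, and the P/Rbf tumors (n = 5) Trp53 fl/fl/TgK18GT121 Tg/+. The normal glands (n = 3) were wild type. In all 3 tumor groups both Trp53 alleles were floxed and recombination was started in adult mice by an adenovirus carrying Cre, delivered to the ducts through the nipple. T121 is a fragment of SV40 large T antigen that inactivates pRb, p107 and p130. It is switched on by Cre and driven by the keratin 18 promoter, so it is expressed in epithelial cells. Where values of the 3 tumor groups follow each other, the order is B1/P/Rbf, then B1/P, then P/Rbf.

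In low oxygen the transcription factors HIF-1 and HIF-2, each a pair of an oxygen-regulated alpha subunit (encoded by Hif1a or by Epas1) and a constant partner (Arnt), escape degradation and bind short DNA elements with the core letters ACGTG or GCGTG. Their known target genes bring glucose into the cell, run glycolysis to lactate, and handle the acid, the blood supply and the mitochondria of a cell short of oxygen. Several of the same genes are driven by other signals too, and several are very abundant in skeletal muscle and in fat. Solid tumors often express them at a high level. The comparisons ask whether the genes differ between tumors and normal gland and between the 3 tumor genotypes.

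Library totals ran from 27661173 to 37794889 expected counts, with a median of 33802255. Levels are CPM, the read count relative to the library total after TMM scaling, and tests are edgeR quasi-likelihood tests with Benjamini-Hochberg adjustment over all 19186 genes, called at an adjusted p of 0.05. One alternative fit adds a term for 2 library sets, all B1/P/Rbf tumors with B1/P tumors 1 to 3 against the other libraries. Each library is a piece of whole tissue, so fewer cells of a type and less RNA per cell cannot be told apart. The normal glands held abundant RNA of neighbouring tissue. The sum of 6 skeletal muscle markers was 23398 to 45138 CPM in the glands, 0.603 to 598 in B1/P tumors and at most 29.7 in the other tumors. The sum of 5 adipocyte markers was 9182 to 13247 CPM in the glands and at most 172 in any tumor. The 4 epithelial markers summed to 1348 to 1741 CPM in the glands and to 682 to 8329 across the tumors. Trp53 was at 6.75 to 24.3 CPM in tumors and 54.4 to 71.8 CPM in glands. Brca1, counted over the whole gene, was at 8.13 to 45.0 CPM in tumors with floxed Brca1, at 44.9 to 116 CPM in P/Rbf tumors and at 4.61 to 5.99 CPM in glands.

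Between tumors and normal glands the members moved in both directions. Slc2a1, Pfkp and Ndrg1 were higher in all 3 tumor groups, and Car9 in the 2 groups with T121. Aldoa was lower in all 3 groups. Ldha was lower in both groups with floxed Brca1, and Hk2 and Bnip3 were lower in B1/P tumors. The Ldha call in B1/P/Rbf tumors was lost in 12 of 16 alternatives and the Hk2 call in 10 of 16. Vegfa did not pass the test in any group, and Pgk1 was higher in P/Rbf tumors alone among the 3 tests. Between tumor groups, 1 member in 1 comparison passed the test, Car9 in P/Rbf against B1/P tumors.

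In B1/P/Rbf tumors 4 of 10 members were higher than in the glands, beside 17.1% of all genes tested, and 2 were lower, beside 20.0%. The median log2 fold change was 0.63 over the members and 0.05 over all genes. With the term for 2 library sets 3 members and 3879 genes were called in this comparison, against 6 and 7108 in the main fit. In B1/P tumors 3 members were higher, beside 16.8% of all genes, and 4 were lower, beside 16.9%, with medians of 0.51 over the members and 0.12 over all genes. In P/Rbf tumors 5 members were higher, beside 17.4%, and 1 was lower, beside 20.3%, with medians of 1.32 and 0.05. These 3 comparisons share the same 3 glands and are not independent of each other.

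**Figure D1:**
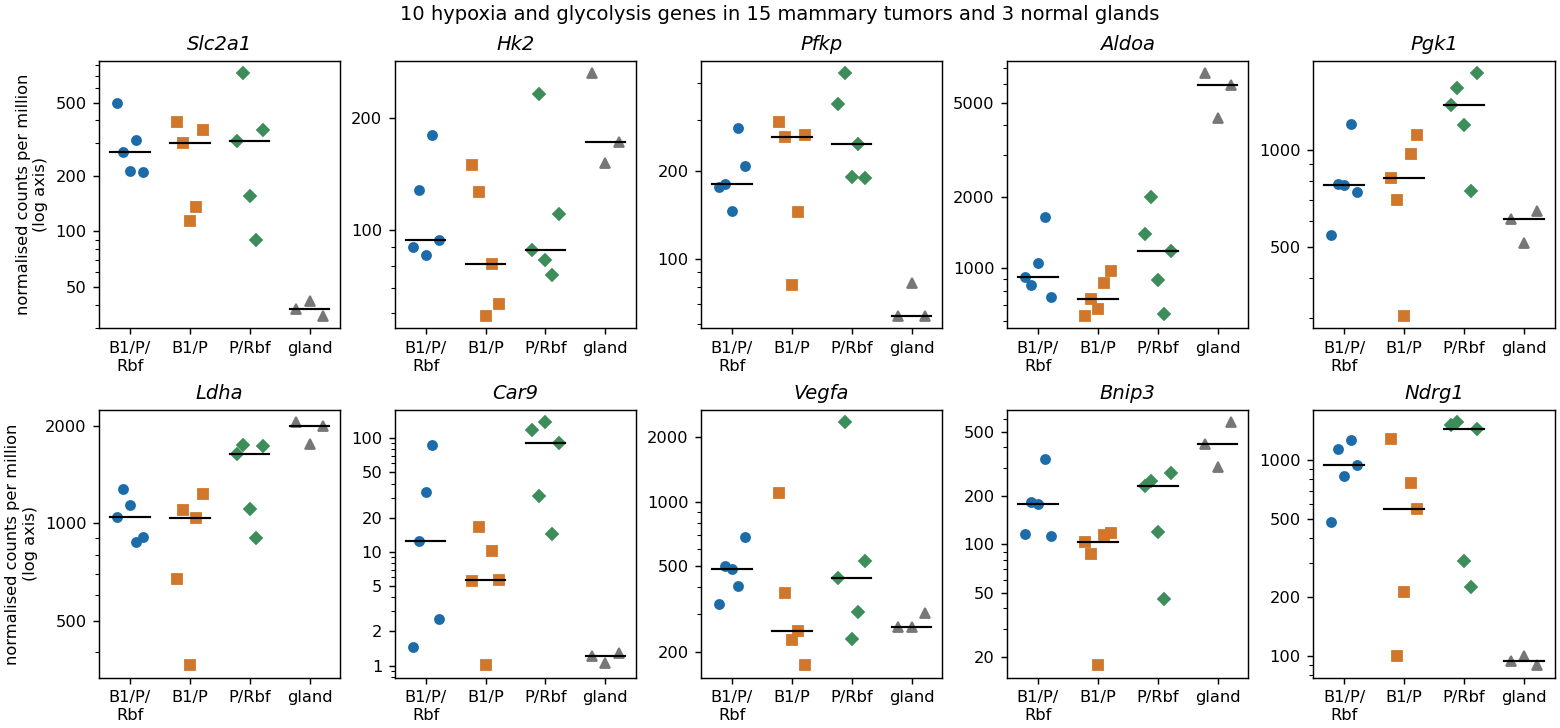
CPM (log axis) of the 10 genes in each of 15 tumors (5 per genotype) and 3 normal glands; points are libraries in the order of their number and bars are group medians. Slc2a1 lies at 89.3 CPM or more in every tumor and at 41.8 or less in every gland, and Aldoa at 1997 or less in every tumor and 4300.2 or more in every gland.

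The promoters of members that moved together across tumors, Bnip3 and Pgk1, are shown with that of Ldha, which held the most HIF core letters, and that of Car9, the member that varied most. Promoters are from RefSeq on GRCm38.p6 and hold 250 bases before and 50 after a transcript start. Entries matched 9 of 10 members, with 13 windows, and not Ndrg1. ACGTG or GCGTG on either strand (read as CACGT or CACGC on the strand shown) is in capitals, and CACGTG, which holds ACGTG on both strands, counts as 2 matches. Of the 13 windows, 11 held a match, beside 43.8% of 32851 mouse promoters of the same length. Each of the 9 members had one in at least 1 window, beside 46.7% of 27025 genes with 1 or more windows, and members with several windows had several chances. For Vegfa the window at the start of the gene (chr17:46032328-46032627) held 0 matches, and the window inside the gene (chr17:46025114-46025413) held 2. The 2 Aldoa windows with a match overlap and hold the same match. Car9 (chr4:43506776-43507075, plus strand) had 1 match, Pgk1 (chrX:106186850-106187149, plus strand) 2, Bnip3 (chr7:138909457-138909756, minus strand) 5 and the first window of Ldha (chr7:46845554-46845853, plus strand) 7. Of all promoters, 1.66% held 5 or more. A match describes the letters and not a bound site.
Car9: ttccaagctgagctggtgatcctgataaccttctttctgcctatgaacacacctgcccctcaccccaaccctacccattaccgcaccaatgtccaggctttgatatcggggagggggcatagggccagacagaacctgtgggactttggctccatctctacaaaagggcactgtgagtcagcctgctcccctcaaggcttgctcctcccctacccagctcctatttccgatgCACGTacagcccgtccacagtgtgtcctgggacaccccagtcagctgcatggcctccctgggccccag
Pgk1: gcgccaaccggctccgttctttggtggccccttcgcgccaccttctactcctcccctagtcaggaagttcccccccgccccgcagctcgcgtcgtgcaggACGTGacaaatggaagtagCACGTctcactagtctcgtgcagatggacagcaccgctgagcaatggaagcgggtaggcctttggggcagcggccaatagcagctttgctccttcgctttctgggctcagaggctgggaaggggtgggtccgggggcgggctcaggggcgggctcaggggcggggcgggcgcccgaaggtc
Bnip3: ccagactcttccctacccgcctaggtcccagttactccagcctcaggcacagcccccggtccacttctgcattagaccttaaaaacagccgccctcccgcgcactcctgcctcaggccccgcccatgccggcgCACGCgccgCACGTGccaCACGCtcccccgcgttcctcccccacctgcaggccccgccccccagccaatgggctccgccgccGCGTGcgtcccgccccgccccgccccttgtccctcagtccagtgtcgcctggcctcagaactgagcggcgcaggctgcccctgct
Ldha: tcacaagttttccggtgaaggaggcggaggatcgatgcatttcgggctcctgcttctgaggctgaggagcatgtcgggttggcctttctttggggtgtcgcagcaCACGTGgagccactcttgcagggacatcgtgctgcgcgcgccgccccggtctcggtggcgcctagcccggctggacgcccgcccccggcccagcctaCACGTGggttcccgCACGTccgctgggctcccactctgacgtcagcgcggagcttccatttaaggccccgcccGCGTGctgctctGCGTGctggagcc

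Slc2a1 (Ensembl ENSMUSG00000028645.11, chr4:119108711-119137983, plus strand, GRCm38) encodes GLUT1, the widespread glucose transporter of the cell surface. Its level was 500.4, 269, 213, 312 and 211 CPM in B1/P/Rbf tumors 1 to 5. Tumors of B1/P had 390.1, 302, 113, 135 and 356 CPM, those of P/Rbf 309, 722, 156, 89.3 and 355 CPM, and the glands 37.8, 41.8 and 34.6 CPM. Every tumor was above every gland, and P/Rbf tumor 2 was the highest and P/Rbf tumor 4 the lowest of the 15 tumors. Against the glands the log2 fold change was 2.98 (SE 0.61, edgeR adjusted p = 0.00116) in the first group, 2.77 (SE 0.61, adjusted p = 0.00223) in B1/P and 3.10 (SE 0.62, adjusted p = 0.000871) in P/Rbf tumors. The 3 tumor groups overlapped widely, and none of the 3 tests between them passed.

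Hk2 (chr6:82725025-82774454, minus strand) encodes hexokinase 2, which phosphorylates glucose as it enters glycolysis and is the main form of muscle and fat. It was at 90.0, 128, 85.8, 179.7 and 94.0 CPM in tumors 1 to 5 of B1/P/Rbf, 149, 126, 58.7, 81.0 and 63.4 of B1/P and 88.4, 231, 83.0, 76.0 and 110.3 of P/Rbf. The glands had 263, 151 and 173 CPM. All 5 B1/P tumors were below the lowest gland, while B1/P/Rbf tumor 4 and P/Rbf tumor 2 were inside the range of the glands. The log2 fold change of B1/P tumors was -1.03 (SE 0.39, edgeR adjusted p = 0.0495), close to the threshold, and the call was lost in 10 of 16 alternatives, among them leaving out B1/P tumor 3, 4 or 5 or any 1 of the glands (adjusted p up to 0.233). In the groups with T121 the values were -0.76 (edgeR adjusted p = 0.137) for B1/P/Rbf and -0.73 (adjusted p = 0.15) for P/Rbf. Both passed with a strict filter of log2 CPM of at least 6 in 6 samples (adjusted p = 0.0329 and 0.0258), and the latter without P/Rbf tumor 2 too (adjusted p = 0.0166, range over all alternatives 0.0166 to 0.507).

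Pfkp (chr13:6579768-6648777, minus strand) encodes the platelet form of phosphofructokinase, the enzyme of the committed step of glycolysis. Its level was 176, 180.5, 146, 280.4 and 209 CPM in B1/P/Rbf tumors. Values of B1/P were 294, 261, 81.5, 145 and 267 CPM and those of P/Rbf 338, 433, 191, 247 and 189 CPM. In the glands it was 64.0, 82.6 and 63.6 CPM. Of the 15 tumors, B1/P tumor 3 alone was below a gland. The log2 fold changes were 1.50 (SE 0.39, edgeR adjusted p = 0.00642), 1.58 (SE 0.39, adjusted p = 0.00523) and 2.00 (SE 0.40, adjusted p = 0.000913) in the 3 groups. The B1/P/Rbf call was lost with the term for library sets (1.46, adjusted p = 0.1, range over all alternatives 0.000742 to 0.1).

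Aldoa (ENSMUSG00000030695.16, chr7:126795234-126800751, minus strand) encodes aldolase A, which splits the sugar of glycolysis and is the aldolase of skeletal muscle. It was the member with the largest fall in CPM. Its level was 913, 846, 1053, 1635 and 754 CPM in B1/P/Rbf tumors. Values of B1/P were 626, 741, 673, 864 and 972 CPM and those of P/Rbf 1396, 1997, 888, 639 and 1176 CPM. The glands had 6647, 4300.2 and 5941 CPM, and no tumor reached the lowest gland. Its log2 fold changes were -2.44 (SE 0.33, edgeR adjusted p = 2.48e-05), -2.86 (SE 0.33, adjusted p = 7.65e-06) and -2.21 (SE 0.33, adjusted p = 6.18e-05) in the 3 groups. A second gene model of the same name (chr7:126800790-126809108, minus strand), which lies just upstream on the same strand, was at 0.469, 0.425 and 0.339 CPM in the glands. In tumors it was at 1.73 to 4.19 CPM in the first group, 0.859 to 1.83 in B1/P and 1.02 to 4.21 in P/Rbf tumors. This low row went the other way, higher in each tumor group by 2.81, 1.64 and 2.44 on the log2 scale (edgeR adjusted p at most 0.0254), and was kept apart from the count of members.

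Pgk1 (chrX:106187100-106203699, plus strand) encodes phosphoglycerate kinase, the first step of glycolysis that makes ATP. It was at 544, 783, 775, 1199.7 and 739.9 CPM in B1/P/Rbf tumors. The B1/P tumors had 818, 699, 304, 968 and 1112 CPM, the P/Rbf tumors 1375, 1549, 1191, 746 and 1728 CPM. In the glands it was 610.2, 511 and 646 CPM, below all 5 P/Rbf tumors. Its log2 fold change against the glands was 1.16 (SE 0.37, edgeR adjusted p = 0.02) in P/Rbf tumors, and the call was lost without gland 1 or gland 2 (adjusted p up to 0.0627) and with the strict filter (adjusted p = 0.0878). It was 0.46 (edgeR adjusted p = 0.336) and 0.40 (adjusted p = 0.404) in the 2 groups with floxed Brca1, in each of which 4 of 5 tumors were above every gland.

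Ldha (chr7:46841475-46855627, plus strand) encodes the muscle type subunit of lactate dehydrogenase, which turns pyruvate into lactate. It was at 1046, 1273, 1136, 876 and 908 CPM in B1/P/Rbf tumors. The B1/P tumors had 673, 1101, 365, 1036 and 1231 CPM, the P/Rbf tumors 1637, 1743, 1109.7, 903 and 1728 CPM. The glands had 2048, 1751 and 1998 CPM, and all 15 tumors were below the lowest gland. It was lower by a log2 fold change of -1.13 (SE 0.32, edgeR adjusted p = 0.0116) in B1/P and -0.88 (SE 0.32, adjusted p = 0.0389) in B1/P/Rbf tumors. The B1/P call was lost under quantile normalization with voom, without TMM scaling and with the term for library sets (adjusted p = 0.221, 0.0512 and 0.155, range over all alternatives 0.00132 to 0.221). The B1/P/Rbf call was lost in 12 of 16 alternatives, among them leaving out any 1 gland or B1/P/Rbf tumor 1, 3, 4 or 5 (adjusted p up to 0.112) and the term for library sets (-0.21, adjusted p = 0.799). In P/Rbf tumors the value was -0.44 (adjusted p = 0.297), which passed with the strict filter (-0.85, adjusted p = 0.0331, range over all alternatives 0.0331 to 0.79).

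Car9 (chr4:43506966-43513729, plus strand) encodes carbonic anhydrase 9, a membrane enzyme that handles the acid around the cell and is widely used as a mark of low oxygen in tumors. It was the member that differed most from tumor to tumor. Its level was 1.45, 12.4, 33.9, 87.1 and 2.56 CPM in B1/P/Rbf tumors 1 to 5. Tumors of B1/P had 5.56, 16.7, 1.01, 10.2 and 5.71 CPM, those of P/Rbf 118, 31.3, 138, 14.5 and 90.7 CPM, and the glands 1.21, 1.05 and 1.29 CPM. All 10 tumors with T121 were above all glands, though B1/P/Rbf tumor 1 only just, and B1/P tumor 3 was below them. Car9 was higher than in the glands by a log2 fold change of 6.05 (SE 1.39, edgeR adjusted p = 0.00265) in P/Rbf and 4.54 (SE 1.29, adjusted p = 0.0111) in B1/P/Rbf tumors. The B1/P value was 2.73 (SE 1.18, edgeR adjusted p = 0.0834), which passed by DESeq2, without TMM and in a fit of only the groups compared (adjusted p = 0.0171, 0.0491 and 0.0269, range over all alternatives 0.0171 to 0.267). The B1/P/Rbf call was lost in voom and with the term for library sets (adjusted p = 0.104 and 0.0789, range over all alternatives 2.65e-05 to 0.104).

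Vegfa (chr17:46016993-46032369, minus strand) encodes the main growth factor of blood vessels. It was at 336, 504, 485, 403 and 687 CPM in B1/P/Rbf tumors. The B1/P tumors had 1096, 374, 226, 250.4 and 173 CPM, the P/Rbf tumors 439, 2347, 229.7, 307 and 531 CPM. The glands had 261, 259.8 and 304 CPM. Each of B1/P tumor 1 and P/Rbf tumor 2 stood far above the other 4 tumors of its group. All 5 B1/P/Rbf tumors were above every gland, while 3 B1/P tumors and 1 P/Rbf tumor were below every gland. Log2 fold changes were 0.81 (SE 0.69, edgeR adjusted p = 0.375), 0.63 (SE 0.68, adjusted p = 0.506) and 1.49 (SE 0.71, adjusted p = 0.109) in the 3 groups. In a fit without the other groups the B1/P/Rbf value passed (edgeR adjusted p = 0.0228, range over all alternatives 0.0228 to 0.719).

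Bnip3 (chr7:138890836-138909519, minus strand) encodes a mitochondrial protein that marks mitochondria for removal in low oxygen. It was at 116, 184, 177, 339.5 and 113 CPM in B1/P/Rbf tumors. Values of B1/P were 103, 87.2, 17.7, 114 and 117 CPM and those of P/Rbf 231, 247, 119.8, 46.0 and 278 CPM. The glands had 423, 301 and 573 CPM. All B1/P and P/Rbf tumors were below every gland, and B1/P/Rbf tumor 4 was inside the range of the glands. Bnip3 had a log2 fold change of -2.30 (SE 0.55, edgeR adjusted p = 0.00424) in B1/P tumors, a call lost with the term for library sets (-1.90, adjusted p = 0.0728, range over all alternatives 0.000396 to 0.0728). It was -1.22 (edgeR adjusted p = 0.0915) in B1/P/Rbf tumors, which passed without B1/P/Rbf tumor 4, with the strict filter and with only the groups compared (adjusted p = 0.042, 0.0267 and 0.0248, range over all alternatives 0.0248 to 0.749), and -1.23 (adjusted p = 0.0875) in P/Rbf tumors, which passed with the strict filter (-1.65, adjusted p = 0.0195, range over all alternatives 0.0195 to 0.275).

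Ndrg1 (chr15:66929318-66969640, minus strand) encodes a stress-response protein of epithelial cells that is raised by low oxygen. It was at 485, 1145, 832, 1269.8 and 944 CPM in B1/P/Rbf tumors. The B1/P tumors had 1288, 99.5, 213, 763 and 561 CPM, the P/Rbf tumors 1505, 1561, 304, 226 and 1442 CPM. The glands were close together, at 94.7, 99.6 and 89.6 CPM. B1/P tumor 2 lay within the range of the glands and the other 14 tumors above it. Against the glands Ndrg1 was higher by 3.30 (SE 0.81, edgeR adjusted p = 0.00414) in B1/P/Rbf, 3.41 (SE 0.81, adjusted p = 0.00333) in P/Rbf and 2.63 (SE 0.78, adjusted p = 0.0151) in B1/P tumors on the log2 scale. The last call was lost without any 1 of the 3 glands (adjusted p up to 0.0625).

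**Figure D2:**
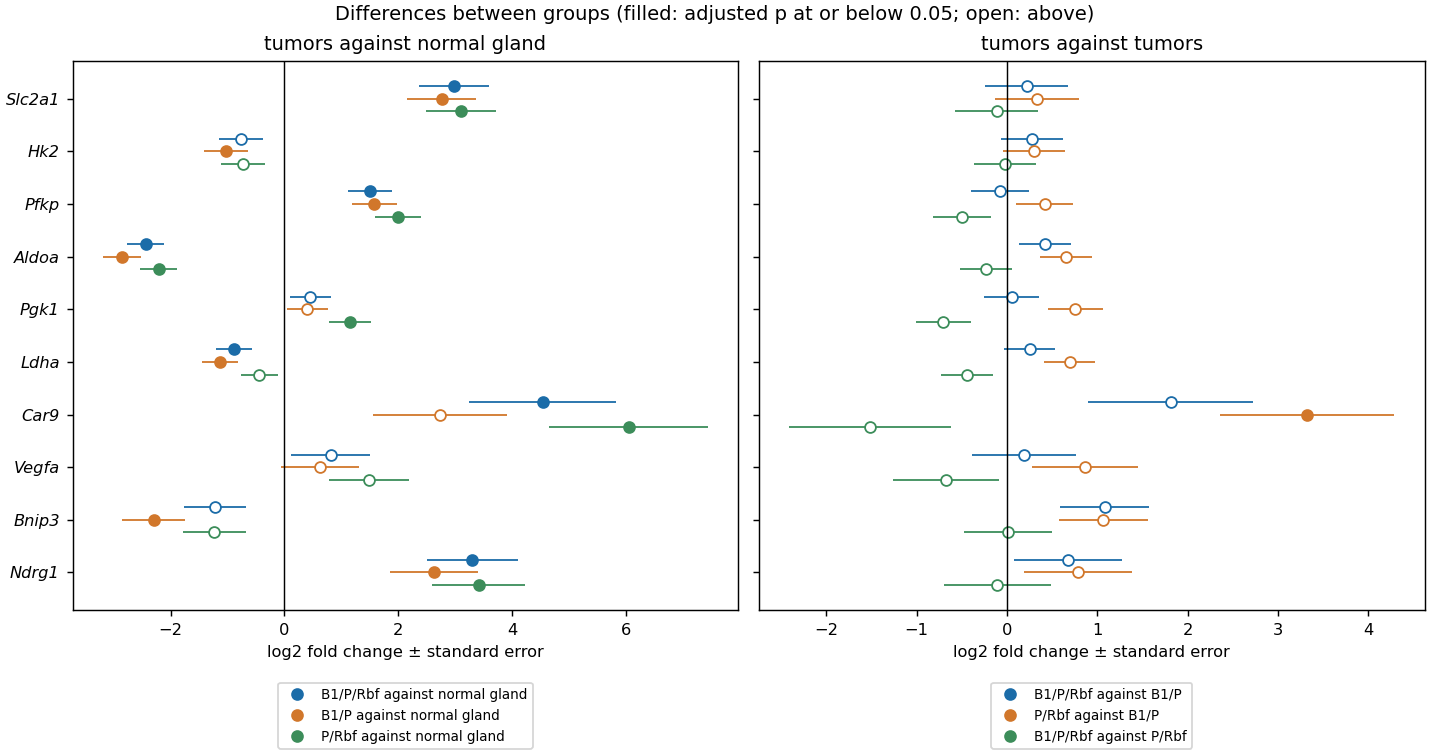
Log2 fold changes (x axis, with standard errors) of the 10 genes for each tumor group against normal gland (left) and between tumor groups (right); filled points have an edgeR adjusted p at or below 0.05. Against the glands the values run from -2.86 for Aldoa in B1/P to 6.05 for Car9 in P/Rbf tumors, and between tumor groups Car9 in P/Rbf against B1/P is the filled point.

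The 4 members that were lower in at least 1 tumor group, Aldoa, Ldha, Hk2 and Bnip3, stood beside a large difference in muscle RNA. All 6 skeletal muscle markers were lower in each tumor group than in the glands, with a median log2 fold change of -15.70, -8.30 and -14.26 in the 3 groups. Within the glands, gland 2 had the lowest marker sum (23398 CPM, against 45138 and 37530.0 in glands 1 and 3) and also the lowest Aldoa, Ldha, Hk2 and Bnip3 of the 3 glands. Gland 2 was likewise the lowest for Pgk1, Vegfa and Car9, which were not lower in tumors by the test, and for the sums of adipocyte markers (9182 CPM) and red blood cell markers (276 CPM, against 728 and 735). The defining markers Acta1 and Ckm were under 1 CPM in all 10 tumors with T121. B1/P tumor 5 held some muscle RNA, with a marker sum of 598 CPM, and had the highest Aldoa, Ldha and Bnip3 of the B1/P tumors (972, 1231 and 117 CPM) but the second lowest Hk2, 63.4 CPM. The part of muscle RNA in these 4 results was not tested. Adipocyte markers (5 of 5) and lymphocyte markers (4 of 4) were also lower in each tumor group, and their part was likewise not tested.

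**Figure D3:**
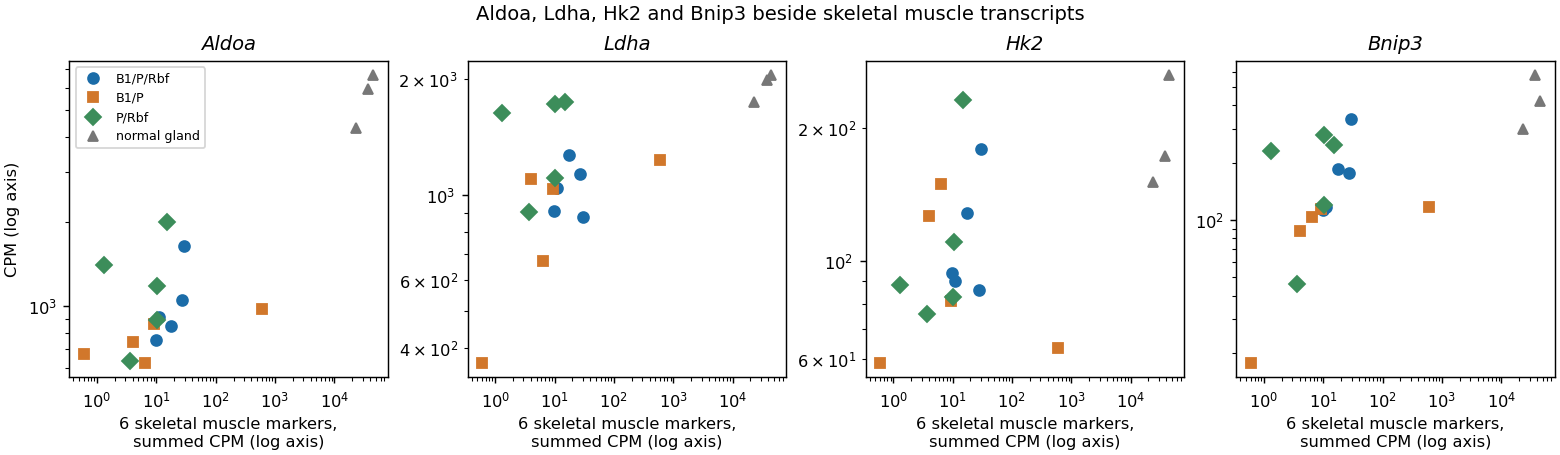
CPM of Aldoa, Ldha, Hk2 and Bnip3 (y axis, log) against the summed CPM of 6 skeletal muscle markers (x axis, log) in 15 tumors and 3 normal glands, 1 point per library. The glands lie at 23398 CPM of markers or more, and B1/P tumor 5 at 598 is the tumor nearest to them.

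Of the 4 muscle forms of glycolysis and glycogen enzymes (Pygm, Pfkm, Pgam2 and Eno3), 4 were lower in each tumor group than in the glands, beside 20.0%, 16.9% and 20.3% of all genes. DESeq2 called 3 of them in each group and gave no adjusted p for Pgam2. Pfkm, the muscle phosphofructokinase, was at 1375, 681 and 1170.2 CPM in the glands and at 23.3 to 76.3 CPM in the tumors, and its log2 fold change was -5.03, -4.91 and -4.38 in the 3 groups (edgeR adjusted p at most 8.79e-08). Pygm, muscle glycogen phosphorylase, was at 1127 to 2243 CPM in the glands and at 0.443 to 26.6 CPM in the tumors. Pgam2, the muscle phosphoglycerate mutase, was at 348 to 632 CPM in the glands and at 0 to 4.73 CPM in the tumors, the highest of them B1/P tumor 5.

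Because each of 4 members is 1 of several forms of its enzyme, its share of the family was computed in every library from CPM per kilobase of exon and compared by exact two-sided permutation tests, 24 in all (6 comparisons of 4 shares). The length used was that of all annotated exons of a gene together, so the size of a share depends on the annotation. Hk2 made up 78.9 ± 5.91% (SD, n = 3) of hexokinases 1 to 3 in the glands and 46.2 ± 4.78%, 39.1 ± 16.8% and 39.6 ± 9.17% (SD, n = 5 each) in the 3 tumor groups, each lower than the glands at the smallest p that 5 against 3 can give (exact permutation p = 0.0179, adjusted p = 0.0429). Hk1, the housekeeping hexokinase, was higher in the tumors by 1.44, 1.82 and 1.86 on the log2 scale (edgeR adjusted p at most 0.0127). With the term for library sets the Hk1 value was 0.35 in B1/P/Rbf (adjusted p = 0.701) and 1.08 in B1/P tumors (adjusted p = 0.076), and neither passed, nor did B1/P/Rbf without gland 3 (adjusted p = 0.0615). Pfkp made up 1.67 ± 0.835% of the 3 phosphofructokinases in the glands, where Pfkm led, and 24.1 ± 4.79%, 21.9 ± 6.06% and 28.7 ± 11.5% in the tumor groups. The exon lengths were 13401 bases for Pfkp, 6675 for Pfkl and 3340 for Pfkm. Before division by length, mean levels of Pfkp, Pfkl and Pfkm were 198, 253 and 32.9 CPM in B1/P/Rbf tumors. In the glands they were 70.1, 124 and 1076 CPM. The exact permutation p for the Pfkp share was 0.0179, 0.0179 and 0.0357 (adjusted 0.0429, 0.0429 and 0.0714).

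Ldha made up nearly the whole of lactate dehydrogenase in tumors with T121. Its share of Ldha and Ldhb was 99.3 ± 0.514% in B1/P/Rbf tumors (SD, n = 5, lowest 98.5%) and 97.9 ± 2.77% in P/Rbf tumors (lowest 93.8%). In B1/P tumors it was 87.3 ± 7.14% (highest 94.7%, just inside the P/Rbf range) and in the glands 85.9 ± 1.65%. Compared with B1/P the share was higher in B1/P/Rbf tumors by 11.9 percentage points (exact permutation p = 0.00794, adjusted p = 0.0429, the smallest p that 5 against 5 can give) and in P/Rbf tumors by 10.5 points (exact permutation p = 0.0159, adjusted p = 0.0429). Ldhb, the heart type subunit, was at 1.59, 6.13, 8.27, 1.50 and 2.08 CPM in B1/P/Rbf tumors. It was at 29.2 to 60.5 CPM in B1/P (median 53.5), 0.46, 54.5, 2.07, 17.0 and 0.953 in P/Rbf tumors and 150.2, 123 and 181 in the glands. Relative to B1/P tumors Ldhb was lower in B1/P/Rbf with a log2 fold change of -3.69 (SE 0.99, edgeR adjusted p = 0.0177), and in P/Rbf against B1/P, where P/Rbf tumor 2 was at the level of B1/P tumors, the value was -1.75 (adjusted p = 0.182, and 0.0167 without P/Rbf tumor 2, range over all alternatives 0.0054 to 0.312). Cell type markers differed in the same comparisons. The 6 basal and squamous markers summed to 111 to 1771 CPM in B1/P, 11.9 to 235 in B1/P/Rbf and 32.3 to 1097 in P/Rbf tumors, with 1 of 6 called lower in each comparison with B1/P. The 4 epithelial markers summed to 682 to 2133 CPM in B1/P and 2392 to 4759 in B1/P/Rbf tumors, 2 of 4 called higher. Fibroblast marker sums had medians of 1909 CPM in B1/P, 624 in B1/P/Rbf and 1198 in P/Rbf tumors. Red blood cell marker sums had medians of 184, 53.3 and 63.6 CPM in the same order. The part of these markers in the Ldha share and in the other differences from B1/P tumors was not tested. Aldoa made up 95.6 ± 1.23%, 95.0 ± 2.11% and 97.3 ± 1.36% of Aldoa and Aldoc in the tumor groups and 99.6 ± 0.216% in the glands.

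**Figure D4:**
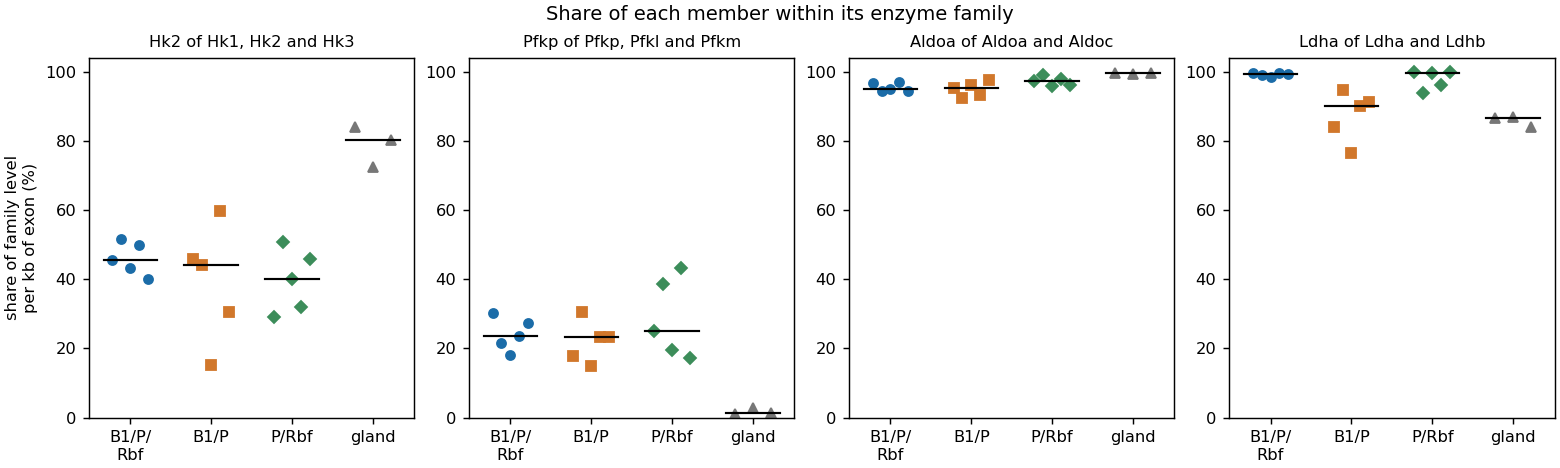
Share (%, per kilobase of exon) of Hk2, Pfkp, Aldoa and Ldha in their enzyme families in each of 15 tumors and 3 normal glands; points are libraries and bars are group medians. The Pfkp share is at most 2.63% in the glands and at least 14.8% in the tumors, and the Ldha share is at least 98.5% in B1/P/Rbf and at most 94.7% in B1/P tumors.

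In the comparison of B1/P/Rbf against B1/P tumors, which differ by T121, 0 of 10 members were called higher, beside 7.36% of all genes, and 0 lower, beside 9.29%. The median log2 fold change was 0.26 over the members and -0.06 over all genes. By edgeR at an unadjusted p under 0.05, 1 member passed, beside 31.3% of all genes, and DESeq2 and voom each called 0. The member with the largest value was Car9, at 1.81 (SE 0.91, edgeR adjusted p = 0.184), followed by Bnip3 at 1.08 (SE 0.49, adjusted p = 0.143). In P/Rbf against B1/P tumors 1 member was higher, beside 8.43% of all genes, and 0 lower, beside 10.8%. The median was 0.72 over the members, all 10 of which had a positive value, and -0.05 over all genes. By edgeR 5 of the 10 had an unadjusted p under 0.05, beside 34.5% of all genes, and DESeq2 and voom each called 1. The called member was Car9, with a log2 fold change of 3.32 (SE 0.96, edgeR adjusted p = 0.0239). Of the 5 P/Rbf tumors, 4 were above every B1/P tumor and P/Rbf tumor 4 was below the highest of them. That call was lost without B1/P tumor 1 (edgeR adjusted p = 0.0522), with B1/P/Rbf tumor 3 and B1/P tumor 5 left out together (adjusted p = 0.0596) and with the term for library sets (adjusted p = 0.163, range over all alternatives 0.000862 to 0.163). Epithelial markers moved with it, 4 of 4 higher in P/Rbf tumors (the median of their log2 fold changes was 2.12) with summed levels of 3620.4 to 8329 against 682 to 2133 CPM, and their part in it was not tested. Both comparisons use the same B1/P tumors.

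In B1/P/Rbf against P/Rbf tumors, which differ by genotype in floxed Brca1, 0 members were higher, beside 0.219% of all genes, and 0 lower, beside 0.0625%. The median was -0.34 over the members and -0.01 over all genes. At an unadjusted p under 0.05 edgeR passed 1 member, beside 16.1% of all genes, and DESeq2 and voom called 0. The Brca1 level of B1/P/Rbf tumor 3, 45.0 CPM, was within the range of P/Rbf tumors (from 44.9 CPM), and 0 members were called without that tumor too. The largest value was again that of Car9, -1.51 (SE 0.90, edgeR adjusted p = 0.432), and Bnip3 was almost equal, 0.01 (SE 0.49).

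Tumors of 1 genotype differed from each other in the members. The standard deviation of log2 CPM within the tumor groups, pooled over the 15 tumors, was 1.85 for Car9, 1.21 for Ndrg1, 0.99 for Bnip3 and 0.99 for Vegfa, against a median of 0.64 over all genes tested. Aldoa, Ldha, Pgk1, Hk2 and Pfkp lay below that median, from 0.46 for Aldoa to 0.58 for Pfkp. Slc2a1 was at 0.87. P/Rbf tumor 2 had the highest level of the 15 tumors for 7 of 10 members (Slc2a1, Hk2, Pfkp, Aldoa, Ldha, Vegfa and Ndrg1), while its Car9 was 31.3 CPM, below 3 other P/Rbf tumors. B1/P tumor 3 had the lowest level for 6 members (Hk2, Pfkp, Pgk1, Ldha, Car9 and Bnip3) and was among the lowest 3 tumors for all 10. P/Rbf tumor 4 was among the lowest 3 for 5 members, with the lowest Slc2a1 of the 15, 89.3 CPM. The 4 epithelial markers summed to 8329 CPM in P/Rbf tumor 2 and 682 CPM in B1/P tumor 3, the highest and the lowest of the 15 tumors. P/Rbf tumor 4 had 5681 CPM. The endothelial sums of B1/P tumor 3 and P/Rbf tumor 4, 249 and 227 CPM, were the highest of their groups. Those of P/Rbf tumor 1 and B1/P/Rbf tumor 4, 63.4 and 90.5 CPM, were the lowest of theirs. The endothelial sum of P/Rbf tumor 2, the highest tumor for 7 members, was 116 CPM, above P/Rbf tumors 1, 3 and 5. In B1/P the lowest was that of tumor 5, 91.3 CPM. Macrophage, neutrophil and fibroblast sums of B1/P tumor 3 (820, 302 and 3594 CPM) were below those of B1/P tumor 2 alone. The part of these markers in the order of the tumors was not tested.

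Bnip3 followed the other members most closely across tumors. After the mean of each tumor group was subtracted, its log2 CPM had a Pearson r of 0.92 with the mean of the other 9 members over 15 tumors, followed by Pgk1 at 0.84 and Slc2a1 at 0.73. Car9 had the lowest, 0.45, and Vegfa 0.50. The numbers of HIF core matches in the 4 promoters printed with the first results were not in this order: Ldha, with the most, had an r of 0.64, below Bnip3 and below Pgk1 with its 2 matches. These are descriptions without a test: all genes of a tumor come from the same library, and B1/P tumor 3 and P/Rbf tumors 2 and 4 lie at the ends. Among 12580 other genes whose average was 5 CPM or higher, the 5 most like the mean of the 10 members over the 15 tumors were Gys1 (r = 0.93, Spearman's rho = 0.92), the muscle type glycogen synthase, Sept11 (r = 0.89), Lig4 (r = 0.85), Eno1b (r = 0.85) and Gm5537 (r = 0.84). Eno1b is nearly the same in sequence as Eno1, so its estimated counts may hold reads of that enolase.

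**Figure D5:**
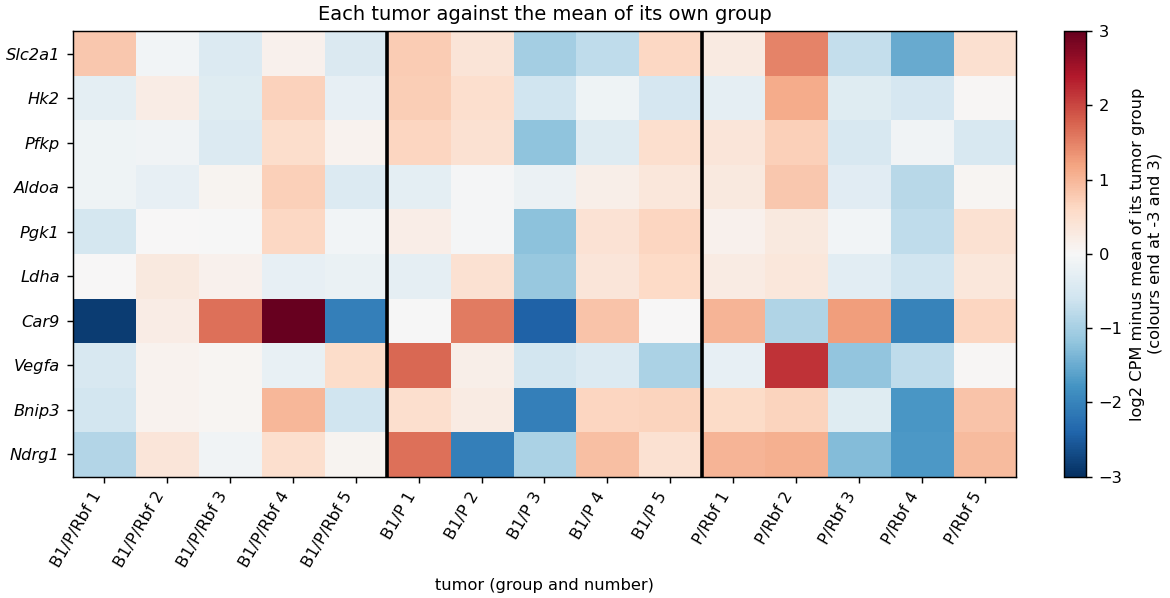
Log2 CPM of the 10 genes (rows) in the 15 tumors (columns) minus the mean of the tumor's own group, in colour from -3 to 3. The column of B1/P tumor 3 is blue throughout and that of P/Rbf tumor 2 is red except for Car9, the row with the largest pooled standard deviation (1.85).

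Levels of different members were compared per kilobase of exon. Pgk1 led, with 360.3 ± 107 CPM per kilobase (mean ± SD, n = 5) in B1/P/Rbf, 348 ± 137 in B1/P and 587 ± 168 in P/Rbf tumors. Aldoa and Ldha were next, at 357 ± 120.2 and 317 ± 49.5 in B1/P/Rbf tumors, and these 3 genes did not differ from each other beyond their SD in B1/P/Rbf or B1/P tumors. Ndrg1, Vegfa, Slc2a1 and Bnip3 followed, from 142 ± 46.1 to 82.1 ± 40.6 in B1/P/Rbf tumors, and Hk2, Pfkp and Car9 were the lowest 3 in every tumor group. In the glands Aldoa led with 1934 ± 414 (SD, n = 3), above Ldha at 584 ± 48.1 and Pgk1 at 263 ± 31.1, and Car9 was lowest at 0.513 ± 0.0531.

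Hif1a, the oxygen-regulated subunit of HIF-1, was higher in both tumor groups with T121 than in B1/P tumors. Of 9 genes of oxygen sensing, 3 rose and 0 fell in B1/P/Rbf tumors relative to the glands, 0 and 0 in B1/P, and 2 and 1 in P/Rbf tumors, beside 17.1% and 20.0%, 16.8% and 16.9%, and 17.4% and 20.3% of all genes. One of the 3 is Arnt, whose call in B1/P/Rbf tumors was lost without B1/P/Rbf tumor 3 (0.46, adjusted p = 0.116). The 2 in P/Rbf tumors are Hif1a and Egln3. Hif1a was higher there by 1.22 (adjusted p = 0.0199), a call lost without gland 1 or gland 3, without P/Rbf tumor 5 and with the strict filter (adjusted p = 0.0963, 0.0904, 0.0531 and 0.093). In the B1/P comparison 1 gene had an unadjusted edgeR p under 0.05, DESeq2 called 0 and voom 1. Hif1a mRNA was at 776, 1338, 636, 503 and 799 CPM in B1/P/Rbf tumors. It was at 191, 192, 117, 128 and 166 CPM in B1/P, 281, 349, 297, 176 and 552 in P/Rbf tumors and 95.9, 220.5 and 109.7 in the glands. Every B1/P/Rbf tumor was above every B1/P tumor and every gland. Against B1/P tumors Hif1a was higher in B1/P/Rbf by a log2 fold change of 2.35 (SE 0.34, edgeR adjusted p = 0.000476) and in P/Rbf by 1.06 (SE 0.32, adjusted p = 0.0302), a call that was lost without B1/P tumor 3, B1/P tumor 4 or P/Rbf tumor 5 (adjusted p up to 0.0941), with B1/P/Rbf tumor 3 and B1/P tumor 5 left out together (adjusted p = 0.0561), in voom (adjusted p = 0.0548) and with the term for library sets (adjusted p = 0.117, range over all alternatives 0.0111 to 0.117). HIF-1 alpha is regulated mainly as a protein, which was not measured here. Vhl, which marks both alpha subunits for degradation, and Epas1, which encodes HIF-2 alpha, did not pass in any of the 6 comparisons of the edgeR fit. Relative to the glands Epas1 was -0.34 in B1/P tumors (edgeR adjusted p = 0.762), and it passed as lower without B1/P tumor 3 (-1.58, adjusted p = 0.0487) and with the term for library sets (-2.44, adjusted p = 0.0481, range over all alternatives 0.0481 to 0.976). In B1/P/Rbf tumors it was -1.40 (edgeR adjusted p = 0.154), which passed in a fit of only the groups compared (adjusted p = 0.0308) and with the term for library sets (-4.10, adjusted p = 0.0145, range over all alternatives 0.0145 to 0.282).

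Arnt, the partner of Hif1a, was called higher in B1/P/Rbf against B1/P (2.76, SE 0.83, edgeR adjusted p = 0.0306) with 1 library far above the rest. B1/P/Rbf tumor 3 had 3132 CPM and the other 17 libraries 81.3 to 154 CPM. Without B1/P/Rbf tumor 3 the edgeR log2 fold change was 0.10 (adjusted p = 0.768, range over all alternatives 0.0174 to 0.811), and the call was also lost without B1/P tumor 1, 3, 4 or 5, in voom, with only the groups compared and with the term for library sets. The members in that tumor were not high, with a median rank of 7.0 among the 15 tumors. Egln3, an oxygen sensor that is itself a HIF target, was higher than in the glands by 2.26 (edgeR adjusted p = 0.0408) in B1/P/Rbf and 2.35 (adjusted p = 0.0346) in P/Rbf tumors, and by 1.42 (adjusted p = 0.179) in B1/P tumors, where it did not pass. Both Egln3 calls were lost without any 1 gland (adjusted p up to 0.123 and 0.107), in voom and with the strict filter. The B1/P/Rbf call was lost in 10 of 16 alternatives, among them leaving out B1/P/Rbf tumor 2, 3 or 4 and the term for library sets (1.25, adjusted p = 0.494), and the P/Rbf call in 7 of 15, among them leaving out P/Rbf tumor 1 or 5.

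Of 19 other genes known to be raised by low oxygen, 9 rose and 1 fell in B1/P/Rbf tumors relative to the glands, 10 and 3 in B1/P and 10 and 1 in P/Rbf tumors. Of all genes 16.8% to 17.4% rose and 16.9% to 20.3% fell in these comparisons. The medians of the list were 1.44, 1.75 and 1.40. Ak4, a mitochondrial adenylate kinase, was higher by 3.56, 2.95 and 3.71 (edgeR adjusted p at most 0.00465) in the 3 groups. Car12, a second membrane carbonic anhydrase, was higher than in the glands by 2.30, 5.70 and 4.56 (adjusted p at most 0.0281). The B1/P/Rbf call was lost without B1/P/Rbf tumor 4, the highest of its group (1.28, adjusted p = 0.0988), without gland 1 or gland 3 (adjusted p = 0.0897 and 0.11), in voom (adjusted p = 0.11) and with the term for library sets (adjusted p = 0.176, range over all alternatives 0.00416 to 0.176). Car12 was at 5.08, 7.64, 7.11, 45.3 and 9.74 CPM in B1/P/Rbf and 135, 123, 217, 105 and 212 CPM in B1/P tumors, a log2 fold change of -3.40 (SE 0.66, edgeR adjusted p = 0.00276). In B1/P/Rbf against P/Rbf tumors Car12 did not pass in the main edgeR fit. It passed there as lower by DESeq2 (-2.26, adjusted p = 0.00869) and without B1/P/Rbf tumor 4 (-3.28, edgeR adjusted p = 0.0147).

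Of these 19 genes 1 was higher and 1 lower in B1/P/Rbf against B1/P tumors and 2 and 0 in P/Rbf against B1/P, beside 7.36% and 9.29% and 8.43% and 10.8% of all genes. Stc2, a secreted glycoprotein of calcium and phosphate balance, was at 244, 151, 96.9, 431 and 689 CPM in B1/P/Rbf and 41.2, 65.4, 499.7, 186 and 422 in P/Rbf tumors, and at 23.6, 17.6, 21.7, 52.0 and 68.4 in B1/P tumors. Relative to B1/P it was higher in B1/P/Rbf by 3.14 (SE 0.69, edgeR adjusted p = 0.00599) and in P/Rbf by 2.73 (SE 0.68, adjusted p = 0.0111). The P/Rbf call was lost with the term for library sets (2.01, adjusted p = 0.162, range over all alternatives 0.000273 to 0.162). Stc2 was lower in B1/P tumors than in the glands with a log2 fold change of -2.26 (adjusted p = 0.023), which was lost without gland 2 and with the same term (adjusted p = 0.0881 and 0.224, range over all alternatives 0.00463 to 0.224). Bnip3l, a relative of Bnip3 with the same role in mitochondria, was higher in P/Rbf against B1/P tumors by 1.09 (SE 0.22, edgeR adjusted p = 0.00324), at 172, 230.4, 224, 190.2 and 315 against 149.8, 102, 93.4, 101 and 84.4 CPM, with no overlap.

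Of 18 other glycolysis enzymes and transporters, in B1/P/Rbf tumors 2 were higher and 2 lower compared with the glands, in B1/P tumors 3 and 1, and in P/Rbf tumors 3 and 4, with medians of -0.07, 0.34 and 0.19, beside the same shares of all genes, 16.8% to 17.4% higher and 16.9% to 20.3% lower. Gapdh, the glycolytic dehydrogenase between aldolase and Pgk1, had log2 fold changes of -0.38, -0.31 and -0.38 (edgeR adjusted p at least 0.353), of which the P/Rbf value passed with the strict filter (-0.78, adjusted p = 0.0439, range over all alternatives 0.0439 to 0.809). Aldoc, the brain type aldolase, was 1.03 in B1/P/Rbf tumors (adjusted p = 0.0705), which passed by DESeq2, by voom, without TMM and with only the groups compared (adjusted p = 0.0439, 0.0372, 0.0185 and 0.00824, range over all alternatives 0.00824 to 0.242). It was 0.86 in B1/P tumors (adjusted p = 0.132), which passed without TMM (adjusted p = 0.0382), and in the other comparisons it passed in none of the fits run. Pkm, pyruvate kinase, was at 2501, 2552, 2612, 3580.0 and 2208 CPM in B1/P/Rbf and 3832, 4535, 3172, 2369.6 and 3932 in P/Rbf tumors, all above the highest of the B1/P tumors, which had 1898, 2038, 1499, 1850.1 and 1349.7 CPM. Against B1/P the edgeR log2 fold change was 0.64 (SE 0.21, adjusted p = 0.0439) in B1/P/Rbf and 1.05 (SE 0.21, adjusted p = 0.00337) in P/Rbf tumors. The first call was lost in 12 of 18 alternatives, among them leaving out B1/P/Rbf tumor 1, 2, 3 or 4 or B1/P tumor 1, 3, 4 or 5 (adjusted p up to 0.115). Pkm was the 1 gene of the 18 that was called higher in each comparison with B1/P, and 2 were called lower in each, beside 7.36% of all genes higher and 9.29% lower in B1/P/Rbf and 8.43% and 10.8% in P/Rbf tumors. Slc2a3, the neuronal type glucose transporter, was lower in both, 8.02-fold (edgeR adjusted p = 0.0109) and 17.1-fold (adjusted p = 0.00248), together with Ldhb in B1/P/Rbf and Eno2, the neuronal enolase, in P/Rbf (a log2 fold change of -2.50, adjusted p = 0.0102). Slc2a3 and Eno2 were singled out after their values were seen.

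Among 9 ligands and receptors of the VEGF family other than Vegfa, 0, 1 and 1 were higher and 2, 3 and 2 lower than in the glands in the 3 groups, beside 16.8% to 17.4% of all genes higher and 16.9% to 20.3% lower. Pgf, placental growth factor, was higher by 4.06 (SE 1.26, edgeR adjusted p = 0.0196) in B1/P and 4.04 (SE 1.25, adjusted p = 0.0178) in P/Rbf tumors. Both calls were lost without any 1 gland and in voom, and the P/Rbf call without P/Rbf tumor 2 and with only the groups compared too (adjusted p up to 0.0705 and 0.188). Without P/Rbf tumor 2 the P/Rbf value fell to 2.23 (edgeR adjusted p = 0.0588). In P/Rbf tumor 2, where Vegfa was highest, Pgf was 221 CPM, against 0.869 to 29.6 in the other 4 P/Rbf tumors. The 5 endothelial markers summed to 320.2 to 355 CPM in the glands and 63.4 to 285 CPM in the tumors.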

How the data were processed

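RNA-seq libraries (poly(A)-selected, stranded, paired-end) of 15 tumors and 3 normal glands were counted by the authors with RSEM. The deposited values are expected counts per gene, not normalised, and 5.61% of them are not whole, so they were rounded. The submitters' processing notes name FastQC 0.11.5, Picard 1.119, cutadapt 1.18, RSEM 1.3.0 and DESeq2 1.28.1. The methods name a human genome, but all 55450 gene identifiers match the mouse annotation GENCODE M21 (GRCm38) with the same symbol, and coordinates and exon lengths were taken from there. Whether reads were counted by strand is not given in the sources used here.

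Low genes were removed with filterByExpr of edgeR at its minimum count of 10 (19186 of 55450 genes remained, and 22562 of the 55450 were at 0 in every library). TMM factors were 0.952 to 1.11 in tumors and 0.788 to 0.858 in glands. One edgeR 4.0.16 quasi-likelihood model with a term per group was fitted to all 18 libraries (R 4.3.3), the 6 comparisons were taken from it, and p-values were adjusted by Benjamini-Hochberg over all genes. The standard error (SE) is that of the log2 fold change. Log2 CPM used a prior count of 2. Enzyme family shares used CPM per kilobase of exon and exact permutation tests. The alternatives were DESeq2 1.42.0, limma-voom (limma 3.58.1) with quantile normalization, no TMM, no filter, a filter of log2 CPM of at least 6 in 6 samples, only the groups compared, a term for 2 library sets, and leaving out each library. One more was chosen after seeing the data, leaving out B1/P/Rbf tumor 3 (the highest Brca1 among tumors with floxed Brca1) and B1/P tumor 5 (muscle markers) together. The 2 library sets, all B1/P/Rbf tumors with B1/P tumors 1 to 3 against the others, are named by no label. They come from an earlier reading of these same counts, and whether they are real batches is not known.

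The members and lists were chosen with earlier results of these data known. Besides the 10 members, 10 pathway genes were always named. From the called genes of the 6 pathway lists, the 2 highest and the 2 lowest log2 fold changes of each comparison were named too, and the 5 genes most like the members. The rule as first written did not set the cell type marker lists apart, and they were left out of it. One gene that the rule names is not reported here. No 2 libraries of a group agreed within counting noise. Each library has its own number in the labels, but nothing says outright that each came from a separate mouse, so p-values measure the spread between these samples, which may in part be technical. The edgeR, DESeq2 and voom fits were tested on simulated counts.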

Additional observations from a re-analysis of the deposited data

Results flagged for a closer look

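In a group of 5 tumors, a library was singled out where its gap to the nearest tumor exceeded 0.71 of the range of the group. For normally distributed values chance does this in about 1 of 20 groups. CPM values need not be so distributed, and the rate for them was not measured. Of 30 groups tested for members 3 were singled out, and of 66 for the other named genes 16.

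Vegfa was 2347 CPM in P/Rbf tumor 2 and 1096 CPM in B1/P tumor 1, each the highest of its group by far. Hk2 was 231 CPM in P/Rbf tumor 2, where Pgf, the relative of Vegfa, was 221 CPM, Car3 4.38 CPM and Pgam2 0.189 CPM. Arnt stood out in 2 groups, at 3132 CPM in B1/P/Rbf tumor 3 and 154 CPM in B1/P tumor 2.

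B1/P tumor 5, the tumor with muscle markers, was the highest of its group for Pgam2 (4.73 CPM), Pygm (26.6 CPM) and Car3 (51.3 CPM), all abundant in skeletal muscle. In B1/P/Rbf tumor 1 Car3 was 50.7 CPM and Pgam2 0.113 CPM. B1/P tumor 3, which was low for the members, was the highest of its group for Epas1 (691 CPM) and the lowest for Ak4 (20.2 CPM). Other such values were Vhl at 59.9 CPM and Car12 at 45.3 CPM in B1/P/Rbf tumor 4, Ldhb at 29.2 CPM in B1/P tumor 2 and Bnip3l at 149.8 CPM in B1/P tumor 1.

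Car9 was the member whose change relative to the normal glands differed between tumor groups, by 3.32 on the log2 scale in P/Rbf against B1/P tumors (edgeR adjusted p = 0.0239). The glands cancel out of that difference, so it is the same test as the comparison of P/Rbf with B1/P tumors reported above. The call was lost without B1/P tumor 1 (edgeR adjusted p = 0.0522) and with B1/P/Rbf tumor 3 and B1/P tumor 5 left out together (adjusted p = 0.0596). It was also lost with the term for library sets (edgeR adjusted p = 0.163).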

How the results depend on the processing

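Of 60 member results (10 genes in 6 comparisons), 20 were called, of which 11 kept their call under every alternative run, 9 lost it in at least 1, and 0 changed sign. Of the 40 not called, 7 were called in at least 1 alternative and 18 changed sign in at least 1. Without TMM the median of all genes moved by 0.37, 0.35 and 0.27 on the log2 scale in the 3 gland comparisons, in the order B1/P/Rbf, B1/P, P/Rbf. With the strict filter, over the 4549 genes it kept, each gene's value moved by a median of -0.30, -0.27 and -0.40, and the median of the genes tested was 0.09, 0.07 and 0.06.

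The single member called in P/Rbf against B1/P (Car9) became 0 with the strict filter (which removed it), with the term for 2 library sets, without B1/P tumor 1 and with the 2 tumors left out together, a range of 0 to 1 when leaving out 1 library. In B1/P/Rbf against glands 3 members and 3879 genes were called with the library set term, against 6 and 7108, the lost members being Pfkp, Ldha and Car9. In B1/P against glands the same term lost Ldha and Bnip3. All B1/P/Rbf tumors and no P/Rbf tumor or gland are in the first set. The term is therefore estimated only from B1/P tumors 1 to 3 against the other B1/P tumors. A call lost with it does not by itself tell a set apart from a group. Why the set term has this effect was not tested.

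Genes called in B1/P/Rbf against B1/P (3195) became 886 with the strict filter, 2039 with only the groups compared and 2101 with the 2 tumors left out. In P/Rbf against B1/P (3684) they became 867, 1507 with only the groups compared and 2008 with the set term. In B1/P/Rbf against P/Rbf (54) they became 1026 by DESeq2, 26 by voom, 3 with the strict filter, 1 with only the groups compared, 5 with the set term, and 9 to 131 when leaving out 1 library, with 9, 10, 17, 22 and 29 without P/Rbf tumors 4 and 2 and B1/P/Rbf tumors 2, 5 and 1 and 131 without B1/P/Rbf tumor 4. Against the glands the strict filter, which tests fewer genes, gave 1763, 1601 and 1668 in the 3 tumor groups. For B1/P against glands (6481) leaving out 1 library gave 4320 to 6435, lowest without gland 3. Apart from the strict filter's fewer genes, the cause was not tested. No paired analysis was possible because no replicate number ties samples of different groups to each other.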

Other observations

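Relatives of Car9 and Ndrg1 differed in direction. Car12, counted with the genes raised by low oxygen, was called higher than in the glands in all 3 tumor groups. Of the 7 other carbonic anhydrases and NDRG genes listed (Car2, Car3, Car4, Car14, Ndrg2, Ndrg3 and Ndrg4), 6, 5 and 5 were lower than in the glands in the 3 tumor groups, in the order B1/P/Rbf, B1/P, P/Rbf, and 0 higher, beside 16.9% to 20.3% of all genes lower and 16.8% to 17.4% higher. The 6 include Car2, whose B1/P/Rbf call was lost in 11 of 15 alternatives (adjusted p = 0.0403, range over all alternatives 0.00297 to 0.972). Medians of the list were -3.44, -3.64 and -5.07. Car3, the abundant carbonic anhydrase of fat and muscle, was at 8823 to 14876 CPM in the glands and at 51.3 CPM or less in every tumor. Car14 was at 12.6 to 30.3 CPM in the glands, at 0.148 CPM or less in the tumors and at 0 in all P/Rbf tumors. Muscle and fat markers were lower in the same comparisons, and their part was not tested.

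Car2, a carbonic anhydrase of the cell interior, was lower in B1/P/Rbf against B1/P tumors with a log2 fold change of -4.57 (SE 1.09, edgeR adjusted p = 0.00932), at 2.10, 0.621, 0.331, 0.558 and 1.23 against 0.763, 9.30, 9.90, 62.8 and 32.7 CPM. With a term for library sets the value was -2.78 (adjusted p = 0.068, range over all alternatives 8.62e-06 to 0.068) and did not pass. Car12 was lower in the same comparison.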
